A study of Mus musculus domesticus with 12 samples.

Results

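The mitochondrial chromosome carries 37 genes, and all 37 were found among the 55385 genes of the deposited tables by a symbol that begins with mt-, looked up from the gene identifier in the mouse GENCODE annotation (release M21, GRCm38). They comprise 2 rRNA genes of 955 and 1582 bases, 22 tRNA genes of 59 to 75 bases and 13 mRNA genes of 204 to 1824 bases. The rule uses no measured value, but this set of genes was taken up with earlier results of these data known. Counts above 0 were present for 15 of the 37 genes, the 2 rRNAs and the 13 mRNAs, and all 15 passed the filter on low counts.

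The libraries came from C57BL/6J fetal liver at age E14.5 (embryonic day). Liver cells were depleted of lineage-positive cells, infected with a retrovirus that carried a short hairpin RNA, kept for 2 days in medium for erythroid expansion, and sorted as GFP+ cells without Ter119 and with intermediate or high CD71, that is erythroid precursors and proerythroblasts. The 3 groups of 4 libraries were shDis3 (hairpin against Dis3, a nuclease of the RNA exosome), shExosc10 (hairpin against Exosc10, the other nuclease of the nuclear exosome) and shLuc (hairpin against luciferase, the control). All groups share the strain, the infection, the culture and the sort. How many hairpins were used per target, and whether the 4 libraries of a group came from separate litters or cultures, is not stated in the sources used here, so p-values measure the spread between these libraries only. The question for the mitochondrial transcripts was whether their share of the library, or the level of any of them, differed with depletion of either nuclease.

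As background, both strands of the mitochondrial chromosome are transcribed by the polymerase Polrmt into long precursors, and the tRNAs that lie between the other genes are cut out by RNase P and by Elac2, which frees the rRNAs and mRNAs. The 13 mRNAs encode subunits of respiratory complexes I, III, IV and V, and the 2 rRNAs form the cores of the mitochondrial ribosome that translates them. In erythroid precursors the mitochondria also house steps of heme synthesis, and the organelles are removed later in maturation. The RNA exosome acts in the nucleus and the cytosol, whereas RNA inside mitochondria is degraded by Pnpt1 together with the helicase Supv3l1.

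Several mitochondrial genes have a nuclear copy that the counting can confuse with them, so the sequences come first. A run of 7 annotated unprocessed pseudogenes on the minus strand of chromosome 1 (24611535 to 24616197, GRCm38) matched members with at least 99% identity over the aligned bases. The pseudogenes Gm28661, Gm10925, Gm28437, Gm10222 and Gm28439 were identical to mt-Co2 over 681 bases, to mt-Atp6 over 678, to mt-Co3 over 783, to mt-Nd4l over 294 and to the first 876 bases of mt-Nd4. Gm28438 differed from mt-Nd3 at 1 of 345 bases (T3C), and Gm29216 differed from the last 483 bases of mt-Co1 at 1 base (A1066T), with positions counted from 1 at the 5′ end of the mitochondrial gene. The base that differs is in capitals in these pairs of GENCODE transcript sequences, which show how little separates a gene from its copy.
mt-Nd3: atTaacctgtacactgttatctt
Gm28438: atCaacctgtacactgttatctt
mt-Co1: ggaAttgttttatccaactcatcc
Gm29216: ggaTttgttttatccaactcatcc

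For mt-Co2, mt-Atp6 and mt-Nd4l, the last bases were the only difference, since the annotated copy ends before the stop codon of the mitochondrial gene. The stop codon is in capitals in mt-Co2 and missing in its copy on chromosome 1.
mt-Co2: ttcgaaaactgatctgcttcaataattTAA
Gm28661: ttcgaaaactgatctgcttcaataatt
mt-Nd4l, shown whole (mitochondrial chromosome, 9877 to 10173, plus strand, stop codon in capitals), is the shortest gene with such a copy: its lower-case 294 bases are also the whole of Gm10222 (chromosome 1, 24612407 to 24612700, minus strand).
mt-Nd4l: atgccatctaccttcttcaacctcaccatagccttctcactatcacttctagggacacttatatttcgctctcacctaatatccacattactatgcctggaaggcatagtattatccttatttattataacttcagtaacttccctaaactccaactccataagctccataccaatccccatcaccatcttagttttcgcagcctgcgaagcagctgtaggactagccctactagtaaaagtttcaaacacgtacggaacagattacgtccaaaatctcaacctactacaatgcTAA

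Members also overlap each other. The 43 bases shared by mt-Atp8 and mt-Atp6 (7927 to 7969, plus strand) are shown because mt-Atp8 is only 204 bases long, so that its last stretch cannot be assigned to one gene by sequence. mt-Nd4l and mt-Nd4 share 7 bases.
mt-Atp8 and mt-Atp6: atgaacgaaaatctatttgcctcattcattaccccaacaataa
mt-Nd5 and mt-Nd6 overlap by 14 bases on opposite strands. The kit keeps the strand, but the strand setting of the counting is not given in the sources used here.

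The tRNA genes are shorter than the sequenced fragments, and 3 of them are shown for their length: mt-Tf, the first gene of the chromosome (1 to 68, plus strand), mt-Tl1, the longest (2676 to 2750, plus strand), which follows mt-Rnr2, and mt-Ts2, the shortest (11613 to 11671, plus strand).
mt-Tf: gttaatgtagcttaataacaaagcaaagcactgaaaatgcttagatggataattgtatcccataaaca
mt-Tl1: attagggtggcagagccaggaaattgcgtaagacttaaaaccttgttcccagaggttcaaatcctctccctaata
mt-Ts2: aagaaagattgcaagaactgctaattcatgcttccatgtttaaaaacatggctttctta

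The libraries held 14936200 to 32397204 expected counts each. Normalised CPM below means CPM computed on the library size scaled by TMM. The hairpin targets were low in their own groups: Dis3 lay at 24.7 to 52.4 normalised CPM in shDis3 libraries against 113 to 160 in shLuc libraries, and Exosc10 at 18.9 to 30.8 in shExosc10 libraries against 85.4 to 113 in shLuc libraries, without overlap, although Dis3 missed the threshold (edgeR quasi-likelihood test, adjusted p = 0.0581). All 10 erythroid markers were above 0 in every library, with a summed level of 1407 to 2180 CPM in shDis3, 1530 to 3204 in shExosc10 and 1343 to 2955 in shLuc libraries. The 7 hepatocyte markers summed to 5.36 to 14.2 CPM in shDis3, 8.16 to 21.3 in shExosc10 and 4.26 to 27.4 in shLuc libraries, mostly from Apoa1 (3.62 to 27.1 CPM, above 0 in every library), while Alb reached at most 4.39 CPM. The 6 granulocyte markers summed to 1776 to 4627 CPM in shDis3, 1093 to 1768 in shExosc10 and 642 to 4384 in shLuc libraries. All 7 megakaryocyte markers were above 0 in every library too and summed to 270.4 to 345 CPM in shDis3, 113 to 261 in shExosc10 and 64.2 to 385 in shLuc libraries. Libraries did not sort by hairpin over all genes: 8 of 12 were closest to a library of another group (r over log2 CPM of the tested genes, a description). shLuc replicate 4 and shDis3 replicate 3 were closest to each other (r = 0.986), as were shDis3 replicate 4 and shExosc10 replicate 1 (r = 0.981), while shDis3 replicate 2 and shExosc10 replicates 2 and 4 were closest to shLuc replicate 2 (r = 0.963, 0.972 and 0.966), and shLuc replicate 2 to shExosc10 replicate 2. Olfactory receptor genes, which these cells are not known to use, summed to 7.32 to 14.7 CPM in the libraries of the first 2 pairs, to 33.2 and 38.9 CPM in shDis3 replicate 1 and shLuc replicate 1, and to 162 to 665 CPM in the other 6. The shares, the calls and the fold changes of the rRNAs and mt-Nd6 are also given with 3 libraries left out (shLuc replicate 4, shDis3 replicate 4 and shExosc10 replicate 1). These were picked from the first 2 of the likenesses above. A likeness does not say which library of a pair to leave out, and shDis3 replicate 3, the other library of the first pair, was kept. Left out were thus the shLuc library closest to a shDis3 library, and the shDis3 and shExosc10 libraries closest to each other. Group differences without the 3 libraries therefore depend on that choice.

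Mitochondrial transcripts made up 9.79% to 20.9% of all counts. The share was 12.01%, 19.9%, 10.3% and 20.9% in shDis3 replicates 1 to 4, 20.8%, 18.5%, 17.3% and 16.2% in shExosc10 replicates 1 to 4, and 20.9%, 17.1%, 12.1% and 9.79% in shLuc replicates 1 to 4. Both the shDis3 and the shLuc libraries ran over nearly the whole range, whereas the shExosc10 libraries lay in its upper part, and all groups overlapped. The means were 15.8% ± 5.42 (shDis3), 18.2% ± 1.96 (shExosc10) and 14.96% ± 4.97 (shLuc; SD, n = 4 each). The differences of 0.81 percentage points for shDis3 minus shLuc and 3.24 for shExosc10 minus shLuc were smaller than the pooled SDs of 5.20 and 3.78. That of shDis3 minus shExosc10, -2.43 percentage points, was also smaller than its pooled SD of 4.08. The sign of shDis3 minus shLuc depended on single libraries: it was negative without shDis3 replicate 2, shDis3 replicate 4, shLuc replicate 3 or shLuc replicate 4 (lowest -0.91) and positive without any other of the 8 (highest 2.78), and it was -2.64 with the 3 libraries named above left out. shExosc10 minus shLuc was positive throughout, but was 1.52 without shLuc replicate 4, 5.21 without shLuc replicate 1 and 0.65 with the 3 libraries left out. shDis3 minus shExosc10 was negative throughout, but was -0.59 without shDis3 replicate 3, -1.18 without shDis3 replicate 1, -1.56 without shExosc10 replicate 1, -3.80 without shDis3 replicate 2, -4.15 without shDis3 replicate 4 and -3.28 with the 3 libraries left out. In these bulk libraries, fewer cells of a type and less RNA per cell cannot be told apart. Both hairpins are set against the same shLuc libraries.

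The rRNAs set this share. mt-Rnr1, the rRNA of the small ribosomal subunit, and mt-Rnr2, that of the large subunit, together held 84.6% to 93.3% of the mitochondrial counts. Their joint share of the library was 10.2%, 17.7%, 8.74% and 19.2% in shDis3 replicates 1 to 4, 18.9%, 16.02%, 15.6% and 14.6% in shExosc10 replicates 1 to 4, and 19.5%, 14.6%, 10.6% and 8.28% in shLuc replicates 1 to 4. The low libraries were shDis3 replicates 1 and 3 and shLuc replicates 3 and 4, and no shExosc10 library fell among them. The group means of 13.9% ± 5.22, 16.3% ± 1.86 and 13.3% ± 4.91 for shDis3, shExosc10 and shLuc overlapped within their SDs (n = 4 each). With the 3 libraries left out, the rRNA share differed by -2.70 percentage points for shDis3 minus shLuc, 0.48 for shExosc10 minus shLuc and -3.18 for shDis3 minus shExosc10, and the mRNA share by 0.07, 0.17 and -0.10. The library kit includes a step that cleaves cDNA made from rRNA, so these counts are what that step left and do not give the ratio of rRNA to mRNA in the cell. Whether the step left the same part in each library was not tested. Of the low libraries, shDis3 replicates 1 and 3 and shLuc replicate 4 had summed granulocyte markers of 4627, 3409 and 4384 CPM, but shLuc replicate 3 had 1274 CPM and shDis3 replicate 2, with a high rRNA share, had 3570.3 CPM. Summed megakaryocyte markers were 321, 345 and 385 CPM in shDis3 replicates 1 and 3 and shLuc replicate 4. They were 107 CPM in shLuc replicate 3 and 301 CPM in shDis3 replicate 2. The part of other cell types in the rRNA share was not tested.

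**Figure D1:**
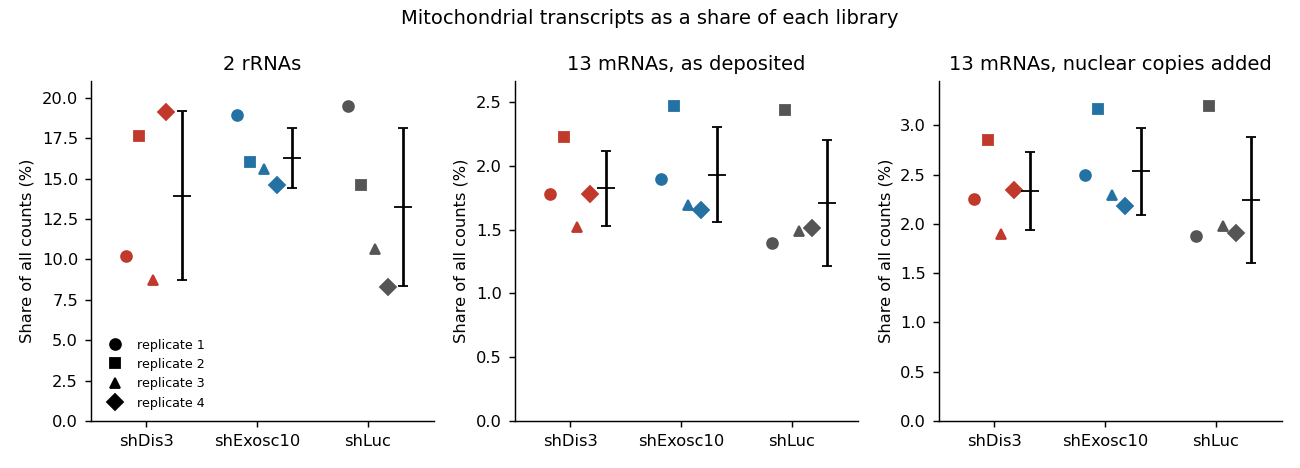
Each point is 1 library (marker shape: replicate number), given as its share of all expected counts in percent for the 2 rRNAs, the 13 mRNAs as deposited and the 13 mRNAs with the counts of their 7 nuclear copies added; the bar is the mean ± SD of 4 libraries. The groups overlap in all 3 panels, and replicate 2 has the highest mRNA share of each group.

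Of the rRNAs, mt-Rnr1 had 28854, 51948, 23372 and 64686 normalised CPM in shDis3 replicates 1 to 4, 63398, 59852, 58908 and 43760 in shExosc10 replicates, and 60432, 50893, 34714 and 22843 in shLuc replicates. The shExosc10 libraries were all above the lowest shDis3 and shLuc libraries, 1 of them (replicate 1) was above the highest shLuc library, and none was above the highest shDis3 library. The log2 fold change of mt-Rnr1 was -0.00 (SE 0.33) for shDis3 against shLuc, 0.42 (SE 0.33) for shExosc10 against shLuc and -0.42 (SE 0.33) for shDis3 against shExosc10. With the 3 libraries left out these were -0.49, 0.17 and -0.67, and none was called. mt-Rnr2 had 70093, 105695, 58495 and 152961 normalised CPM in shDis3 replicates 1 to 4, 145612, 101250, 96736 and 94282 in shExosc10 replicates, and 167448, 88052, 72870.1 and 55397 in shLuc replicates. Its highest and its lowest library were both shLuc. Its log2 fold changes were 0.01 (SE 0.35), 0.19 (SE 0.35) and -0.18 (SE 0.35) in the same order of comparisons, and -0.49, -0.15 and -0.34 with the 3 libraries left out, again with no call. The ratio of mt-Rnr2 to mt-Rnr1 counts, transcripts that arise from the same precursor, averaged 2.33 ± 0.207 in shDis3, 1.95 ± 0.328 in shExosc10 and 2.26 ± 0.445 in shLuc libraries (SD, n = 4 each), and ranged over all libraries between 1.64 and 2.77.

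The tRNAs gave no counts. All 22, which include mt-Tf, mt-Tl1 and mt-Ts2 shown above, were listed at 0 in all 12 libraries, with a deposited effective length of 0, while the mean fragment length behind the deposited effective lengths was 226.6 to 245.8 bases. Among all genes, 6225 had an effective length of 0 in every library, and only 2 of those had a count above 0. For a gene with an effective length above 0, a count of 0 allows up to 3 counts, or 0.0926 to 0.201 CPM in these libraries. With their effective length of 0, the tRNA genes have no such limit. The tables therefore give no level of mature tRNAs, and no comparison of them between the groups could be made.

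The 13 mRNAs made up 1.78%, 2.22%, 1.52% and 1.78% of the counts in shDis3 replicates 1 to 4, 1.90%, 2.47%, 1.70% and 1.66% in shExosc10 replicates 1 to 4, and 1.39%, 2.44%, 1.49% and 1.51% in shLuc replicates 1 to 4. Replicate 2 was the highest of each group, and the groups overlapped. The olfactory receptor sum was also highest of its group in shDis3 replicate 2 (665 CPM) and shLuc replicate 2 (360.3 CPM), but not in shExosc10 replicate 2 (218 CPM, against 278 in replicate 4), and its part in the mRNA share was not tested. The means were 1.83% ± 0.294, 1.93% ± 0.374 and 1.71% ± 0.490 for shDis3, shExosc10 and shLuc (SD, n = 4 each). The mRNA share thus varied by a factor of 1.77 between the highest and the lowest library and the rRNA share by 2.35. With the 7 nuclear copies added, the share was 1.87% to 3.19%, and the copies held 19.998% to 25.8% of that sum.

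For 4 mRNAs most of the counts lay on the nuclear copy in every library. Gm28661 held 93.5% to 96.4% of the counts that it and mt-Co2 had together, Gm10925 held 84.0% to 93.7% beside mt-Atp6, Gm28437 held 77.4% to 88.7% beside mt-Co3, and Gm10222 held 74.6% to 93.2% beside mt-Nd4l. Each of these copies spans the whole member but for the last 1 to 3 bases. Gm28438, with its 1 mismatch to mt-Nd3, held 25.999% to 71.4%, the widest range of the 7 pairs. The copies that span only part of a member took almost nothing: Gm28439 held at most 0.380% beside mt-Nd4 and Gm29216 at most 0.174% beside mt-Co1. Copies with at least 95% but under 99% identity on other chromosomes (Gm13339, Gm13340, Gm13341 and Gm4076) stayed at or below 0.803 CPM. Fragments within identical stretches cannot be told apart by sequence, so the level of mt-Co2, mt-Atp6, mt-Co3, mt-Nd3 and mt-Nd4l is uncertain in the deposited values, and the sum with the copy is given beside each.

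**Figure D2:**
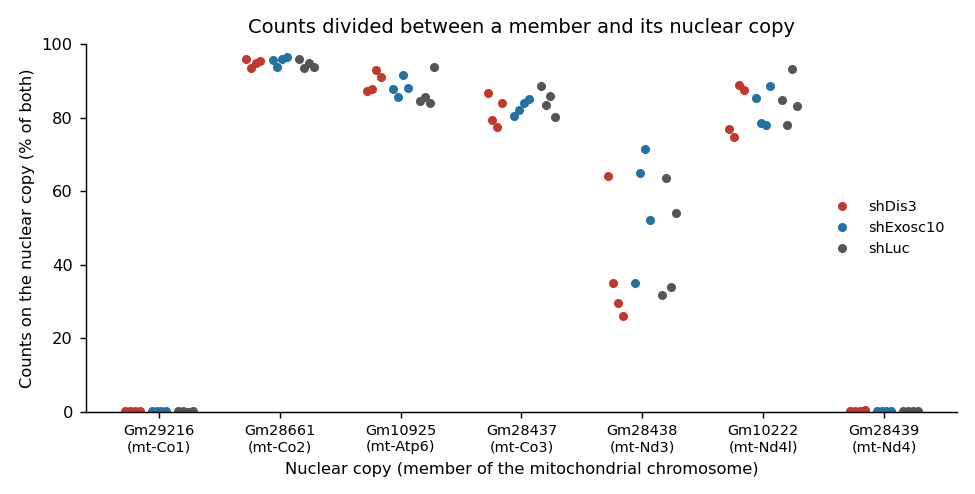
For each of the 7 pairs, points give the counts on the nuclear copy as a percentage of those on copy and mitochondrial gene, 1 point per library in the colour of its group. Full-length copies hold 25.999% to 96.4% and partial copies (Gm29216, Gm28439) under 0.4%, and groups overlap for each pair.

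mt-Co2, a subunit of complex IV (cytochrome c oxidase), is the mRNA with the lowest mean TPM of the 13, 159.5 ± 77.7 (SD, n = 12). As deposited it had 55.9, 113, 49.4 and 80.4 normalised CPM in shDis3 replicates 1 to 4, 87.8, 162, 82.8 and 53.9 in shExosc10 replicates, and 57.9, 167, 77.7 and 63.2 in shLuc replicates. With Gm28661 added, the values were 1331, 1726, 978 and 1770.3 in shDis3 replicates, 1967, 2572, 1970.3 and 1516 in shExosc10 replicates, and 1378, 2609, 1533 and 1012 in shLuc replicates. Replicate 2 was high in the shExosc10 and shLuc groups on both scales, and the groups overlapped. The summed level had log2 fold changes of -0.17 (SE 0.28) for shDis3 against shLuc, 0.30 (SE 0.28) for shExosc10 against shLuc and -0.47 (SE 0.28) for shDis3 against shExosc10.

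mt-Atp8, a small subunit of complex V (ATP synthase), is the mRNA with the highest mean TPM, 6765 ± 3160.5 (SD, n = 12), on an effective length of only 11.2 to 13.8 bases. It had 76.3, 121, 58.3 and 91.7 normalised CPM in shDis3 replicates 1 to 4, 109, 189, 89.8 and 82.0 in shExosc10 replicates, and 93.3, 174, 82.6 and 64.3 in shLuc replicates. Divided by its annotated length it stood at 503 ± 200.3 normalised CPM per kb (SD, n = 12). As deposited, 6 of the other 12 mRNAs lay below it on that scale (mt-Co2, mt-Nd4l, mt-Nd6, mt-Co3, mt-Nd3 and mt-Atp6), and with nuclear copies added 1 did (mt-Nd6). Its groups overlapped, with log2 fold changes of -0.26 (SE 0.33), 0.18 (SE 0.33) and -0.44 (SE 0.33) for shDis3 against shLuc, shExosc10 against shLuc and shDis3 against shExosc10.

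Levels per annotated length, with copies added, put the rRNAs far above the mRNAs, although rRNA counts are only what the cleavage step of the kit left. mt-Rnr2 averaged 63680 ± 23335 and mt-Rnr1 49185 ± 16530.1 normalised CPM per kb over the 12 libraries, a difference smaller than these SDs between libraries. Within libraries, mt-Rnr2 lay above mt-Rnr1 in all but shExosc10 replicate 3 (61148 against 61683.5 normalised CPM per kb). The mRNAs followed with mt-Atp6 at 4134 ± 838 and mt-Co1, the catalytic subunit of complex IV, at 3864 ± 782. Next came mt-Cytb of complex III at 2867 ± 636, mt-Co2 at 2481 ± 768, mt-Nd1 at 2467 ± 646 and mt-Co3 at 1697 ± 471. The complex I subunits mt-Nd2, mt-Nd5 and mt-Nd4 lay close together at 1394 ± 464, 1328 ± 187 and 1258 ± 304 normalised CPM per kb. The lowest were mt-Nd4l at 817 ± 156, mt-Nd3 at 593 ± 249.5, mt-Atp8 at 503 ± 200.3 and mt-Nd6 at 242 ± 159. Of these, mt-Nd4l, mt-Nd3 and mt-Atp8 are the shortest mRNA genes, with effective lengths of 69.6 to 80.3, 113 to 127 and 11.2 to 13.8 bases. Their place thus depends on the length used, and by mean deposited TPM mt-Atp8 was the highest mRNA. Among neighbours in this order of mRNAs, the steps from mt-Co1 to mt-Cytb, from mt-Nd1 to mt-Co3, from mt-Nd4 to mt-Nd4l and from mt-Atp8 to mt-Nd6 exceeded both SDs, and the other steps did not. These SDs are spreads between libraries, and the order of the mRNAs within single libraries was not examined. As a share of all mRNA counts with copies, mt-Co1 held most, 21.4% to 28.1%.

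**Figure D3:**
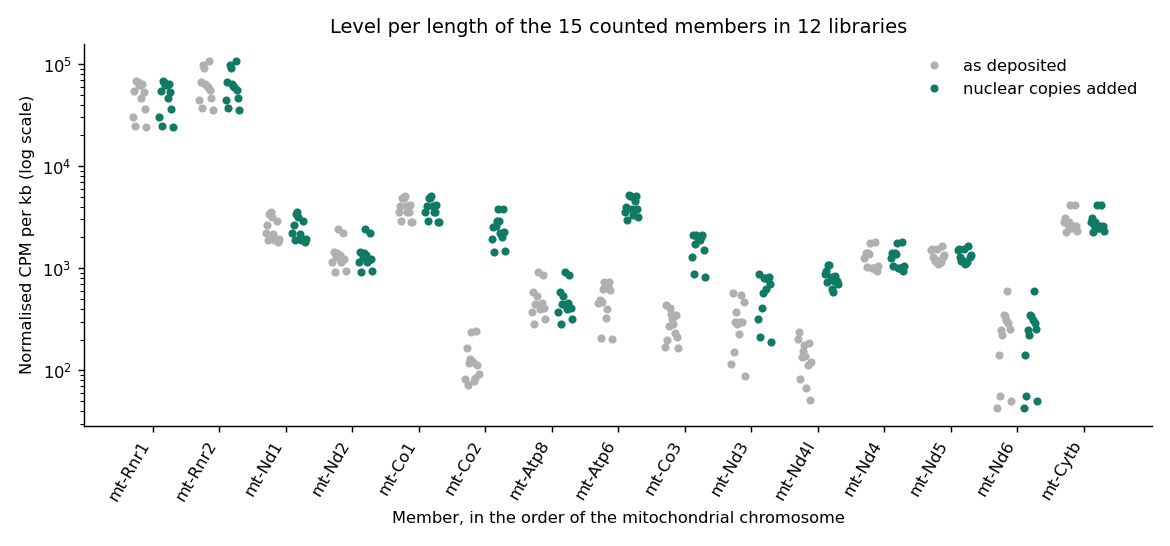
Normalised CPM per kb of annotated length (log scale) of the 15 members with counts, in chromosome order, 1 point per library; grey points are the values as deposited and green points those with the nuclear copies added. The rRNAs lie above all mRNAs, adding copies moves mt-Co2, mt-Atp6, mt-Co3, mt-Nd3 and mt-Nd4l up, and mt-Nd6 has the widest spread with copies added.

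No member passed the threshold of adjusted p under 0.05 between any of the groups (edgeR quasi-likelihood test fitted over all 17650 genes that passed the filter, Benjamini-Hochberg adjustment). The count was 0 of 15 for shDis3 against shLuc, where 0% of all tested genes passed, 0 of 15 for shExosc10 against shLuc, where 0.00567% passed, and 0 of 15 for shDis3 against shExosc10, where 0.0113% passed. The genes called were the hairpin targets themselves, Exosc10 for shExosc10 against shLuc, and Exosc10 and Dis3 for shDis3 against shExosc10. With so few genes called in these libraries, the members' 0 does not set them apart. At an unadjusted p under 0.05 the members numbered 0, 0 and 1 in those comparisons, and all genes 719, 371 and 1055. DESeq2 also called 0 members in each, and limma 0.

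In shDis3 against shLuc, 7 members lay above 0 and 8 below it on the log2 scale, and their median was -0.00 beside 0.02 over all tested genes. In shExosc10 against shLuc, 12 were positive and 3 negative, with a median of 0.18 beside 0.02 over all tested genes. In shDis3 against shExosc10, 2 were positive and 13 negative, with a median of -0.19 beside 0.01. The members share precursors and libraries and are not independent of each other. The tally for shExosc10 against shLuc moved with single libraries: it was 6 positive and 9 negative without shExosc10 replicate 2, and 14 and 1 without shLuc replicate 2. It was 8 and 7 without the 3 libraries named above. The tally for shDis3 against shLuc was 11 and 4 without shLuc replicate 2, and 4 and 11 both without shDis3 replicate 2 and without the 3 libraries. That for shDis3 against shExosc10 was 6 and 9 without shDis3 replicate 3, and 3 and 12 without the 3 libraries.

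**Figure D4:**
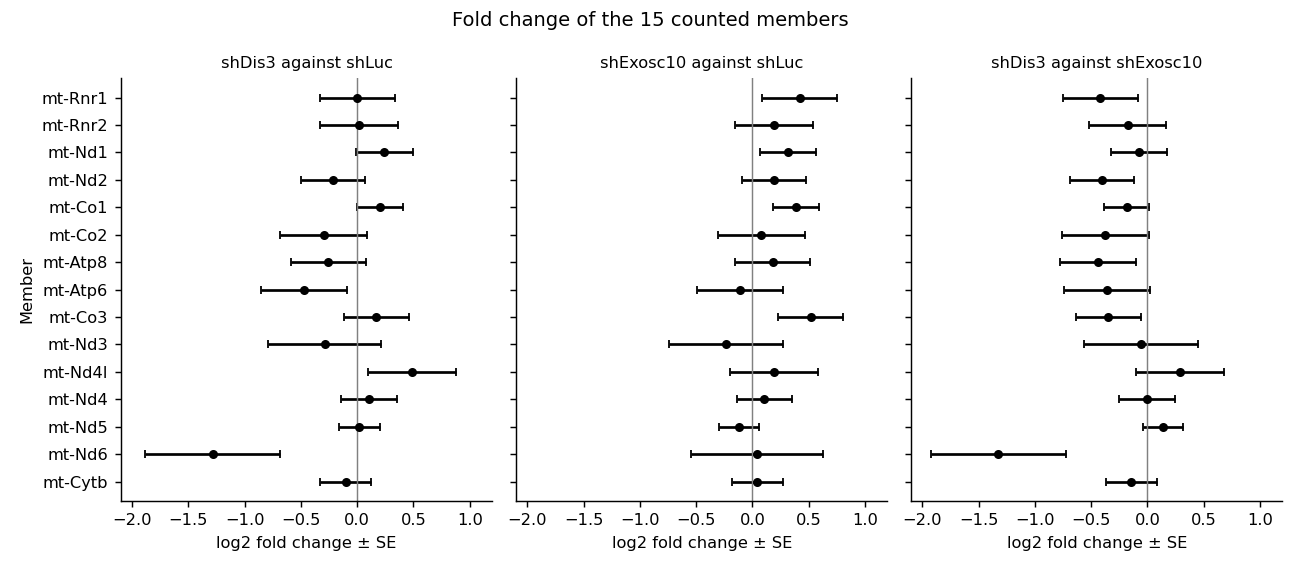
Points give the log2 fold change of each of the 15 members with counts, in chromosome order, and bars its SE, for shDis3 against shLuc, shExosc10 against shLuc and shDis3 against shExosc10 (4 libraries per group). mt-Nd6 lies farthest from 0 in both comparisons that involve shDis3, at -1.28 and -1.33, and no member passed the threshold.

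Complex I subunits showed the member with the largest fold change. mt-Nd6, an integral membrane subunit and the sole mRNA encoded on the other strand than the rest (mitochondrial chromosome, 13552 to 14070, minus strand), had 22.1, 73.9, 29.03 and 129 normalised CPM in shDis3 replicates 1 to 4. It had 116, 179, 179 and 163 in shExosc10 replicates and 312, 149, 131 and 26.2 in shLuc replicates. Of the 3 libraries under 30 CPM, 2 were shDis3 (replicates 1 and 3) and 1 was shLuc (replicate 4), so the shDis3 and shLuc groups overlapped, and shDis3 replicate 4 lay above shExosc10 replicate 1. Means were 63.5 ± 49.4 in shDis3, 159 ± 29.7 in shExosc10 and 155 ± 118 in shLuc (SD, n = 4 each). The log2 fold change was -1.28 (SE 0.60, edgeR adjusted p = 0.99985) for shDis3 against shLuc, 0.04 (SE 0.59) for shExosc10 against shLuc and -1.33 (SE 0.60, edgeR adjusted p = 0.822) for shDis3 against shExosc10.

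The mt-Nd6 result depended on the libraries and on the filter. With those 3 libraries left out, mt-Nd6 was the single member past the threshold, with log2 fold changes of -2.26 (SE 0.40, edgeR adjusted p = 0.00425) for shDis3 against shLuc and -2.09 (SE 0.39, edgeR adjusted p = 0.00949) for shDis3 against shExosc10. That choice takes out the lowest shLuc, the highest shDis3 and the lowest shExosc10 value of mt-Nd6. The number of genes called was then 772 and 617 of the 19126 tested. With no filter on low counts, the log2 fold changes were -1.29 and -1.35 with edgeR adjusted p = 0.00325 and 0.00156. In that fit 123 and 179 of the 41382 tested genes were called. Leaving out 1 library at a time gave no call, with log2 fold changes between -1.91 and -0.68 for shDis3 against shLuc, the smallest without shLuc replicate 1. The largest, -1.91, came without shDis3 replicate 4.

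As a share of all mitochondrial mRNA counts with copies, mt-Nd6 made up 0.102%, 0.290%, 0.163% and 0.486% in shDis3 replicates, 0.421%, 0.562%, 0.782% and 0.789% in shExosc10 replicates, and 1.43%, 0.492%, 0.654% and 0.146% in shLuc replicates. The order of libraries was thus much as for the CPM, and the highest library exceeded the lowest by 14.005 times, against 1.31 to 3.39 times for the other 12 mRNAs. The summed granulocyte markers were 4627, 3570.3, 3409 and 1776 CPM in shDis3 replicates 1 to 4 and 642, 1017, 1274 and 4384 CPM in shLuc replicates 1 to 4, so that the 3 lowest mt-Nd6 libraries were among the 4 with the highest granulocyte sums. The part of other cell types in the mt-Nd6 level was not tested. Its neighbour mt-Nd5, which it overlaps on the opposite strand, is a large membrane subunit of complex I and varied least per length, by 1.49 times between libraries. mt-Nd5 had 2721, 2803, 2348 and 2167 normalised CPM in shDis3 replicates, 2202, 2835, 2021 and 2063 in shExosc10 replicates, and 2092, 3014, 2368 and 2434 in shLuc replicates.

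**Figure D5:**
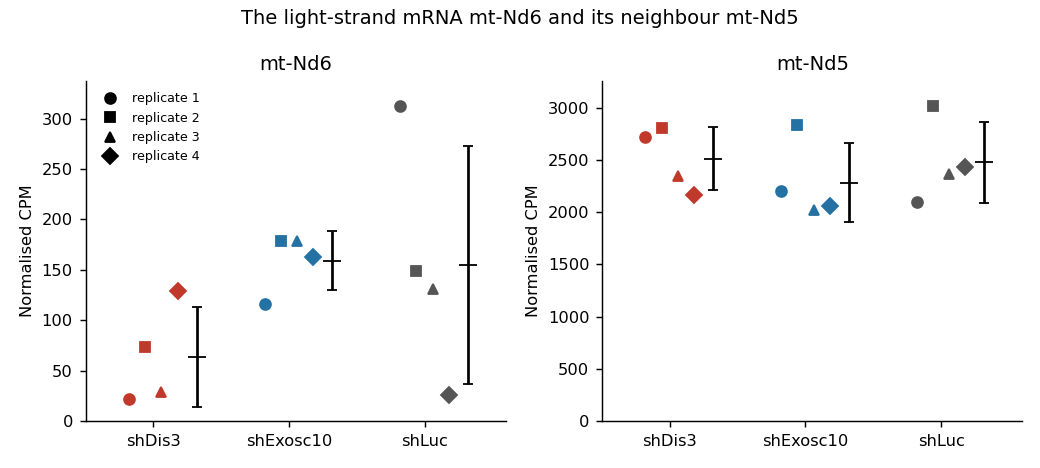
Normalised CPM of mt-Nd6 (left) and mt-Nd5 (right) in each library, with the replicate number as marker shape and the mean ± SD of 4 libraries as bar. For mt-Nd6, shDis3 replicates 1 and 3 and shLuc replicate 4 lie under 30 CPM, and the groups overlap for both genes.

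The other subunits of complex I had log2 fold changes of smaller size than mt-Nd6 in both comparisons that involve shDis3. This did not hold for shExosc10 against shLuc, where mt-Nd6 had 0.04 and mt-Nd1 0.32. mt-Nd1, mt-Nd2, mt-Nd4 and mt-Nd5 lay between -0.41 and 0.32 in the 3 comparisons. mt-Nd3 and mt-Nd4l, both with a copy, are given as sums. mt-Nd3 with Gm28438 had 111, 306, 74.3 and 141 normalised CPM in shDis3 replicates 1 to 4, 199, 279.8, 278 and 217 in shExosc10 replicates, and 276, 283, 243 and 66.7 in shLuc replicates. Low libraries here were again shDis3 replicates 1 and 3 and shLuc replicate 4, with shDis3 replicate 4 next. Its log2 fold changes were -0.46 (SE 0.43) for shDis3 against shLuc, 0.17 (SE 0.43) for shExosc10 against shLuc and -0.63 (SE 0.43) for shDis3 against shExosc10. mt-Nd4l with Gm10222 ranged from 175 to 322 normalised CPM and had log2 fold changes of 0.26 (SE 0.20), 0.03 (SE 0.20) and 0.23 (SE 0.20) in those comparisons.

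In complex IV, mt-Co3 had the largest fold change of shExosc10 against shLuc in the deposited values, though not with nuclear copies added. As deposited it had 133, 339, 154 and 215 normalised CPM in shDis3 replicates 1 to 4, 322, 278, 248 and 223 in shExosc10 replicates, and 180.1, 272, 168 and 129 in shLuc replicates. The shExosc10 libraries overlapped the shLuc libraries through shLuc replicate 2. The log2 fold change was 0.52 (SE 0.29, edgeR adjusted p = 0.999995) for shExosc10 against shLuc, 0.17 (SE 0.29) for shDis3 against shLuc and -0.35 (SE 0.29) for shDis3 against shExosc10. With Gm28437 added, the levels were 1002, 1647, 681 and 1339 in shDis3 replicates, 1653, 1548, 1540 and 1482 in shExosc10 replicates, and 1591, 1642, 1191 and 646 in shLuc replicates. The fold change of shExosc10 against shLuc was then 0.30 (SE 0.29), below those of mt-Rnr1, mt-Co1 and mt-Nd1, and that of shDis3 against shLuc had the other sign, -0.12 (SE 0.29). mt-Co1, whose copy takes almost no counts, had log2 fold changes of 0.20 (SE 0.20), 0.39 (SE 0.20) and -0.19 (SE 0.20) for shDis3 against shLuc, shExosc10 against shLuc and shDis3 against shExosc10.

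For complex III, mt-Cytb averaged 3094 ± 377 normalised CPM in shDis3, 3422 ± 911 in shExosc10 and 3323 ± 946 in shLuc libraries (SD, n = 4 each), with log2 fold changes between -0.15 and 0.04. For complex V, mt-Atp6, the membrane subunit next to the rotor ring, had a log2 fold change of -0.47 (SE 0.38) for shDis3 against shLuc as deposited and of -0.07 (SE 0.22) with Gm10925 added. The SE of mt-Atp6 was thus smaller for the sum, as it was for mt-Co2, mt-Nd3 and mt-Nd4l.

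The nuclear genes that make and degrade mitochondrial RNA were read from a list of 40, of which 38 were in the tables and passed the filter. None passed the threshold in any comparison (0 of 38 by edgeR). At an unadjusted p under 0.05 they numbered 0, 0 and 2, beside 4.07%, 2.10% and 5.98% of all tested genes. Their log2 fold changes were positive for 18 and negative for 20 in shDis3 against shLuc, positive for 24 and negative for 14 in shExosc10 against shLuc, and positive for 14 and negative for 24 in shDis3 against shExosc10. Positive values made up 52.6%, 52.2% and 51.2% of all tested genes in that order. Medians were -0.00, 0.08 and -0.05 beside 0.02, 0.02 and 0.01 over all tested genes.

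For transcription, Polrmt, the mitochondrial RNA polymerase, averaged 40.7 ± 10.4 normalised CPM in shDis3, 29.7 ± 1.43 in shExosc10 and 38.9 ± 10.1 in shLuc libraries (SD, n = 4 each). Tfam, which packages the chromosome and opens its promoters, averaged 70.6 ± 15.4, 72.6 ± 17.995 and 69.8 ± 4.82 in shDis3, shExosc10 and shLuc libraries, and the initiation factor Tfb2m averaged 38.6 ± 10.3, 39.7 ± 7.64 and 39.8 ± 5.36. All groups overlapped for the 3 genes. For stability, Lrpprc, which with Slirp stabilises mitochondrial mRNAs, averaged 191 ± 51.6, 178 ± 41.5 and 186 ± 17.6 in shDis3, shExosc10 and shLuc libraries.

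Slirp had 13.01, 19.2, 9.37 and 19.1 normalised CPM in shDis3 replicates 1 to 4, 27.7, 22.3, 28.02 and 22.5 in shExosc10 replicates, and 29.2, 24.9, 19.98 and 9.96 in shLuc replicates. The shDis3 and shExosc10 libraries did not overlap, whereas shLuc replicate 4 lay among the shDis3 values. The share of all tested genes without such overlap was not computed, so this separation is not read as a result about Slirp. In the same list, Nsun3 did not overlap between shDis3 and shLuc, with a log2 fold change of 0.35 (SE 0.18, edgeR adjusted p = 0.99985). This is not read as a result about Nsun3 either. The log2 fold change of Slirp for shDis3 against shExosc10 was -0.73 (SE 0.30, edgeR adjusted p = 0.792). It missed the threshold, which 0.0113% of all tested genes passed, namely the hairpin targets Exosc10 and Dis3. Slirp ranked 672 by p among the 17650 tested genes.

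For processing and decay, Trmt10c, a subunit of mitochondrial RNase P, averaged 46.4 ± 13.6 normalised CPM in shDis3, 65.6 ± 13.2 in shExosc10 and 53.4 ± 11.1 in shLuc libraries. Its log2 fold change for shDis3 against shExosc10 was -0.50 (SE 0.23, edgeR adjusted p = 0.819). Elac2, which cuts at the 3′ ends of tRNAs, averaged 97.3 ± 25.3, 78.3 ± 7.71 and 96.9 ± 24.7 in shDis3, shExosc10 and shLuc libraries. Pnpt1, the mitochondrial exoribonuclease, averaged 77.4 ± 22.9, 105 ± 14.7 and 90.1 ± 18.7, and its helicase partner Supv3l1 57.2 ± 13.2, 53.2 ± 12.8 and 49.3 ± 2.77. The groups overlapped for these 4 genes in every comparison.

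Other nuclear lists around the organelle gave 0 calls by edgeR as well. Over all tested genes, 4.07%, 2.10% and 5.98% had an unadjusted p under 0.05 and 52.6%, 52.2% and 51.2% a positive value for shDis3 against shLuc, shExosc10 against shLuc and shDis3 against shExosc10, and the median log2 fold changes were 0.02, 0.02 and 0.01. The 11 genes of mitochondrial DNA maintenance had median log2 fold changes of -0.01, 0.04 and -0.11 in that order, and 1, 0 and 0 had an unadjusted p under 0.05. The 81 tested nuclear-encoded subunits of the respiratory complexes had medians of -0.08, 0.03 and -0.15, with 27, 49 and 22 positive values and 1, 0 and 2 genes at an unadjusted p under 0.05. The 78 mitochondrial ribosomal proteins, which join the 2 rRNAs in the ribosome, had medians of 0.08, 0.12 and -0.07, with 50, 58 and 30 positive values and 2, 3 and 4 genes at an unadjusted p under 0.05.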

How the data were processed

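Expression in 12 libraries of sorted mouse erythroid precursors was read from the authors' tables of expected counts, TPM and effective length (other columns, such as FPKM, were not used). Per the submitters' processing notes these came from RSEM 1.3.0 and STAR 2.5.3a on GRCm38 (mm10); the annotation release and the strand setting were not found in these notes. In the deposited tables the expected counts of genes above 0 were not whole in 10.0% of values, and they were rounded to whole numbers. Of 55385 identifiers, 54487 matched GENCODE M21 with version and 55144 without. Shares are percentages of all expected counts per library. Members, lists and libraries to leave out were chosen with earlier results of these data known. Libraries were grouped by hairpin target and fitted together with edgeR 4.0.16 (R 4.3.3; filterByExpr, TMM, quasi-likelihood test, adjusted p under 0.05). The procedure was run on simulated data with known fold changes, as a check of the code only. The common biological coefficient of variation between libraries was 60.0%, so a lack of calls does not show a lack of change. DESeq2 1.42.0 and limma 3.58.1 on log2 of the deposited TPM + 1 were alternatives. Sums over members were not tested. Nuclear copies were taken as annotated genes with at least 95% identity over 200 bases (BLAST 2.17.0 on GENCODE transcripts, since no genome was used here); those of at least 99% were added to their member as an alternative chosen after seeing the data. Genes named in full were the rRNAs, mt-Nd6, the mRNAs of highest and lowest mean TPM, the largest fold change of each comparison and a fixed set of 9 machinery genes; mt-Nd3 and mt-Nd5 were added after their values were seen. The same count table gave totals of 14936200 to 32397204 per library. The widest 95% Wilson interval of a library's share spanned 0.0405 percentage points; intervals and floors cover counting error only.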

Additional observations from a re-analysis of the deposited data

Results flagged for a closer look

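Of 81 sets of 4 libraries of a group examined (each share and each member), 8 held 1 library that stood apart. Its gap to the nearest other, divided by the range, exceeded Dixon's critical value for 4 samples at the 95% level. Chance alone marks about 1 in 20 of independent sets. These sets share counts and are not independent, so 8 of 81 cannot be set against that rate. Of the 8 marked sets, 5 concern shLuc replicate 2 and overlap in their counts. Its mRNA share was 2.44% against 1.39% to 1.51% in the other shLuc libraries, and 3.19% against 1.87% to 1.98% with nuclear copies added. In the same library mt-Nd1 stood at 2792 normalised CPM against 1741 to 1865, mt-Nd4 at 2470.6 against 1283 to 1450 and mt-Cytb at 4725 against 2647 to 2978. In shLuc replicate 1 the ratio of rRNA to mRNA counts with copies was 10.4 against 4.35 to 5.38. In shExosc10 replicate 1, mt-Rnr2 stood at 145612 normalised CPM against 94282 to 101250. In shDis3 replicate 3, mt-Atp6 as deposited was lowest at 141 normalised CPM against 309 to 330 in the other shDis3 libraries.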

How the results depend on the processing

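The number of members past the threshold changed in 4 cases: it was 1 (mt-Nd6), instead of 0, with no filter on low counts and without the 3 libraries, each for shDis3 against shLuc and for shDis3 against shExosc10; the cause was not tested. It was 0 in the other 59 cases, among them RLE size factors, TMM off the mitochondrial chromosome, DESeq2, limma, the replicate block, the cluster of libraries as a factor, added nuclear copies and leaving out 1 library at a time (0 to 0). Share differences moved by less than 1 SD under every alternative run, which for differences this small includes changes of sign. Over all genes, calls for shDis3 against shLuc, shExosc10 against shLuc and shDis3 against shExosc10 were 0, 1 and 2 of 17650 tested. They were 123, 10 and 179 of 41382 with no filter, 28, 6 and 48 of 41382 with DESeq2, and 1, 0 and 1 of 11278 with limma. With the cluster factor they were 32, 4 and 24 of 17650, and without the 3 libraries 772, 3 and 617 of 19126. Without shLuc replicate 4, 146 of 19777 were called for shDis3 against shLuc. limma's values were shifted by a median of 0.19 and 0.17 over all genes for shDis3 against shLuc and against shExosc10, and with them 11 of 15 members were positive for shDis3 against shLuc. Replicate numbers paired the libraries unevenly: 7 of 12 correlations of same-numbered deviations exceeded 0.1 (range -0.47 to 0.77). Only 4 of 12 libraries correlated best with their own number. All correlations were positive for replicate 2 (0.77, 0.37 and 0.40) and replicate 1 (0.17, 0.23 and 0.10), while those of replicates 3 and 4 had both signs. With the replicate block 0 members and 0, 1 and 1 genes were called. Values of mRNAs with a nuclear copy are limited by how reads were divided, and those of tRNAs by fragment length.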

Other observations

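Values of the same members in the 2 pairs of libraries that resembled each other most over all genes, although they carry different hairpins, were as follows. shDis3 replicate 3 and shLuc replicate 4 had mitochondrial shares of 10.3% and 9.79%, mt-Nd6 at 29.03 and 26.2 normalised CPM, mt-Rnr2 at 58495 and 55397, mt-Nd3 with its copy at 74.3 and 66.7, and mt-Co3 with its copy at 681 and 646. shDis3 replicate 4 and shExosc10 replicate 1 had mitochondrial shares of 20.9% and 20.8%, mt-Nd6 at 129 and 116 normalised CPM, mt-Rnr2 at 152961 and 145612, mt-Nd3 with its copy at 141 and 199, and mt-Co3 with its copy at 1339 and 1653, so that these last values lay less close. Dis3 itself was at 43.2 normalised CPM in shDis3 replicate 3 and at 160 in shLuc replicate 4, and at 52.4 in shDis3 replicate 4 and 196 in shExosc10 replicate 1, so its level followed the hairpin in both pairs. These pairs and the members shown were chosen after their values were seen, and no closeness was tested.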
